A study of Mus musculus with 16 samples.

Results

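The response of C57BL/6J (C57) flexor tendon to injury was examined at 7 days post-injury (dpi) in 7 of the 16 RNA-seq libraries of the series, and in 8 when a library that stood apart was added. The 4 injured libraries, labelled BI-181 and BI-183 to BI-185, came from the deep digital flexor tendon of digit 3 of the hind paw after a transverse incision through about 50% of its width. They were compared with the uninjured C57 libraries C57_uninj_3, C57_uninj_4 and C57_uninj_5, while C57_uninj_6 entered a second comparison only. The libraries of the first comparison were selected on measured values, since the epidermal marker counts of C57_uninj_6 put it aside. All mice of the study were male and between 9 and 11 weeks of age, and each RNA came from a single tendon from which the sheath and the tissue around the tendon had not been removed. Injured mice had ketamine and xylazine anaesthesia, a sutured skin wound and buprenorphine, and the methods give none of these for the uninjured tendons, so injury and surgery cannot be told apart. The methods give 4 animals per experimental group, though nothing in the labels ties single tendons to animals. The p-values measure the spread between these tendons.

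Tendon joins muscle to bone through parallel collagen fibres, between which lie the fibroblasts that make them. After a wound, monocytes enter the wound along chemokine gradients and become macrophages, which clear debris and present peptides on MHC class II molecules, while fibroblasts of the sheath and of the tendon divide and lay down new matrix. The comparison of injured with uninjured tendon at 7 dpi asks which genes and processes stood higher or lower in the wound at that time. A bulk library mixes all of these cells, and a fall of a transcript through fewer cells of a type cannot be told apart from one through less RNA per cell.

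Total counts on genes ranged from 12883569 to 16579900 in the 7 libraries, and a count of 3, used as the floor, was worth 0.193 to 0.245 CPM. Levels are given in CPM, counts scaled to library size, on TMM-adjusted library sizes. Values of injured libraries are given in the order BI-181, BI-183, BI-184, BI-185, and those of uninjured libraries in the order C57_uninj_3, C57_uninj_4, C57_uninj_5. Fold changes and adjusted p-values came from the quasi-likelihood test of edgeR over all tested genes with Benjamini-Hochberg adjustment, and a differentially expressed gene (DEG) had an adjusted p below 0.05 and an absolute log2 fold change above 1. A fold change against a group in which no library had more than 3 counts is given as a lower bound, computed against the mean CPM that 3 counts per library are worth in that group. Such a gene had enough counts to be tested through the other group alone, so its direction followed from the filter on counts.

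Tendon markers were present in every library, with Dcn, the proteoglycan decorin, at 16881, 27543, 23912 and 32141 CPM in the injured and 39913, 34673 and 38619 CPM in the uninjured libraries. Libraries differed in their content of other cell types, most of all BI-181 and C57_uninj_6. In BI-181, 11.1% of all counts fell on 30 skeletal muscle markers, against 0.358% in BI-183 and at most 0.00756% in each of the remaining libraries. In C57_uninj_6, 11.8% of counts fell on 36 epidermal markers, against 0.181% in C57_uninj_5 and at most 0.0255% elsewhere. Spearman's rho over genes between it and each other uninjured library was 0.823 to 0.844, whereas these correlated with one another at 0.955 to 0.967. C57_uninj_5 held transcripts of neutrophils that its group lacked, with S100a8 at 88.2 CPM against 0.562 and 0 CPM in C57_uninj_3 and C57_uninj_4. C57_uninj_3 had the highest adipocyte share of the uninjured libraries, 0.0298% against at most 0.0133%, and also their highest shares for smooth muscle (0.198%) and Schwann cell genes (0.173%). The epidermal share was the reason C57_uninj_6 was set aside, after its values had been seen, and the epidermal and muscle shares are given as a description. What part these cells have in the results was not tested beyond the comparisons with and without each library and with muscle and epidermal genes removed, which gave 764 DEG on 7 and 180 on 8 libraries.

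**Figure D1:**
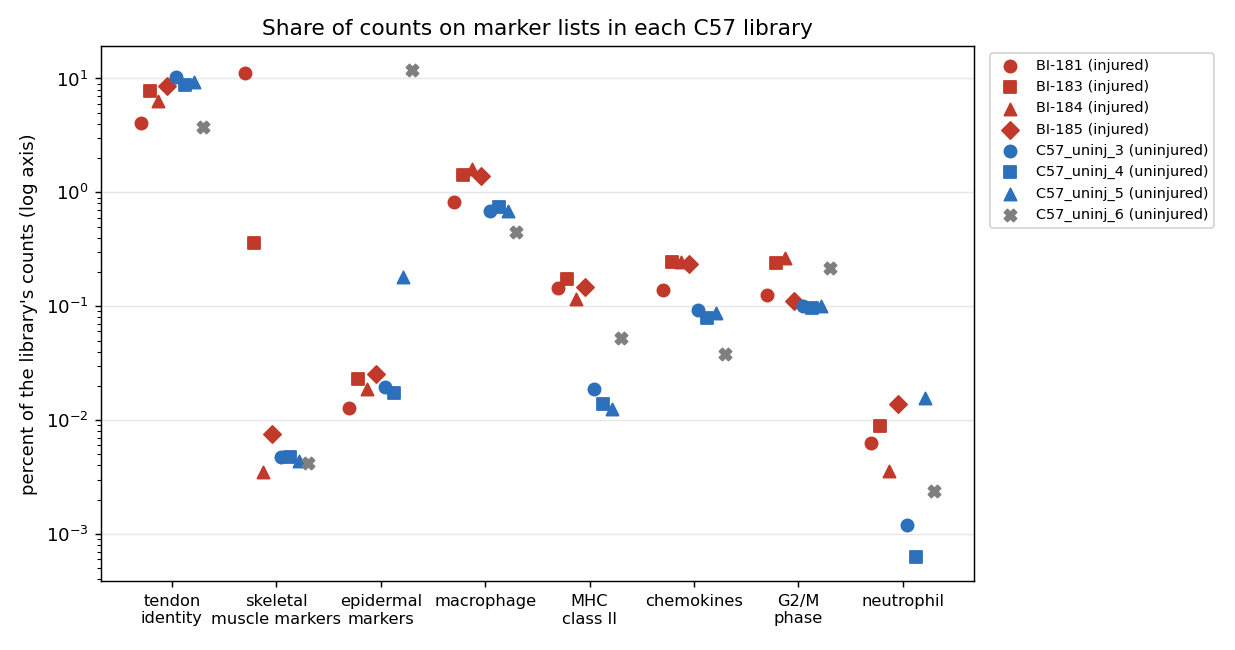
Percent of each library's counts (log axis) on 8 marker lists, with injured libraries in red, the 3 uninjured libraries of the main comparison in blue and C57_uninj_6 in grey. BI-181 reaches 11.1% on the muscle list and C57_uninj_6 11.8% on the epidermal list, while the 4 injured libraries all lie above the uninjured ones for the macrophage, MHC class II and chemokine lists. Without Lyz2, its most abundant gene, the macrophage share of BI-181 (0.517%) lies below the 0.602% to 0.654% of the 3 uninjured libraries.

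Among 14983 tested genes, 752 (5.02%) were DEG, of which 540 (3.6%) were higher and 212 (1.41%) lower in injured tendon. Groups did not overlap in CPM for any of the 752 DEG, and the same held for 21.9% of all tested genes. The median log2 fold change over all tested genes was 0.03. When C57_uninj_6 was added, 14424 genes were tested and 163 (1.13%) were DEG, with 140 (0.971%) higher and 23 (0.159%) lower. Of those 163 genes, 159 were also DEG in the 7 libraries, in the same direction, which is 97.5% of the smaller and 21.1% of the larger set. The biological coefficient of variation rose from 0.484 to 0.604 with that library. The count also rested on single libraries of the main comparison: it was 278 without C57_uninj_3, 207 without C57_uninj_4, 222 without C57_uninj_5 and 373 without BI-183, against 867 (5.97%) without BI-181. DESeq2 on the same 7 libraries gave 1477 DEG. DESeq2 on the 8 libraries gave 911 of 16570 tested, 691 higher and 220 lower, a larger share than edgeR called there. Higher genes numbered 207 of 15814 tested without C57_uninj_3, 159 of 15752 without C57_uninj_4, 172 of 15883 without C57_uninj_5 and 259 of 14516 without BI-183. List counts given below for these comparisons are to be read beside these totals. A set of 147 genes was DEG in all 7 comparisons with 1 library left out, and 74 of these, 64 higher and 10 lower, were DEG with C57_uninj_6 as well. The call of every other DEG was lost without at least 1 library.

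**Figure D2:**
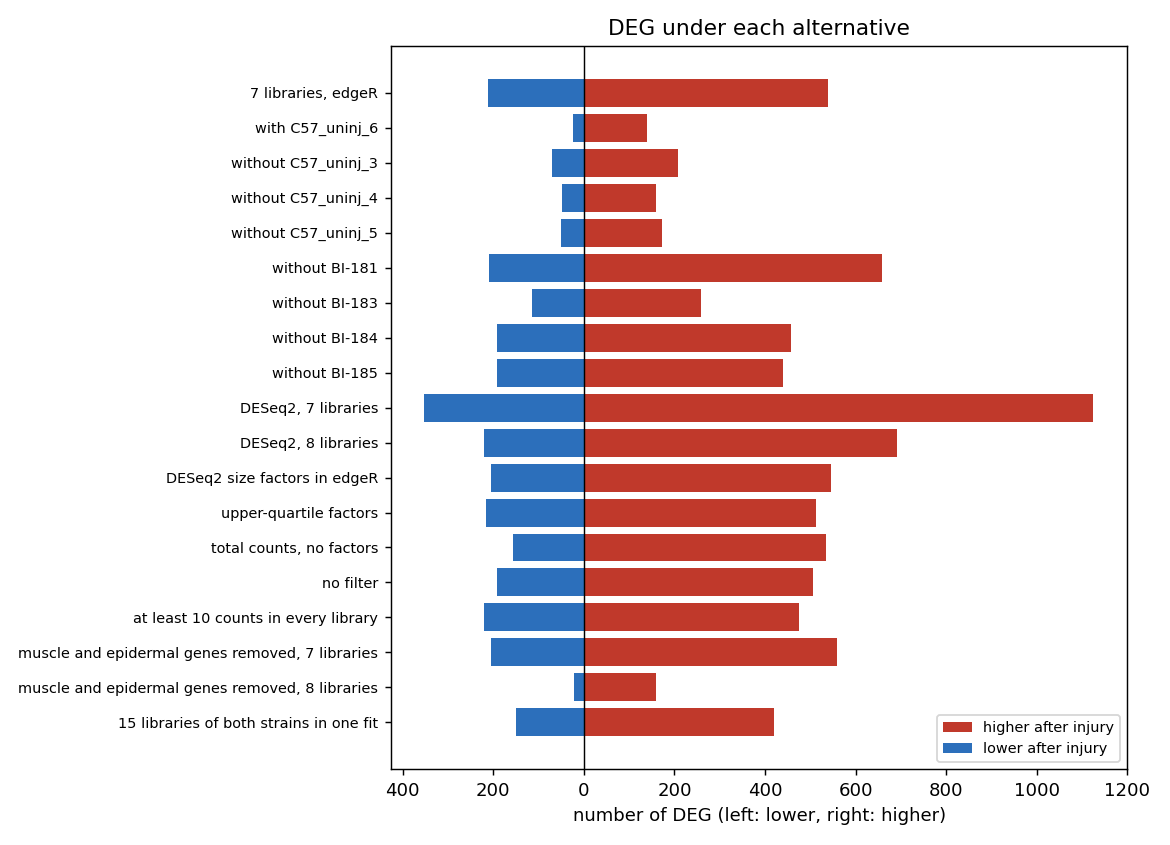
Number of DEG that were higher (red, right) and lower (blue, left) in injured tendon under each alternative. The count of higher genes runs from 140 with C57_uninj_6 to 1125 with DESeq2 on 7 libraries, and that of lower genes from 21 to 352.

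Transcripts of macrophages rose. All 40 members of the macrophage list were tested, 24 of them were higher and none was lower, beside 3.6% higher over all tested genes, and the median log2 fold change of the list was 2.12. With C57_uninj_6 added, 16 of 37 tested members were higher (0.971% of all genes), and DESeq2 on those 8 libraries called 28. Leaving out C57_uninj_3, C57_uninj_4 or C57_uninj_5 gave 17, 13 and 16.

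Lyz2, the lysozyme of myeloid cells (chr10:117277331-117282321 in GRCm38), was the most highly counted of them, at 3305, 5828, 5941 and 4859.7 CPM in injured and 839, 904 and 949.7 CPM in uninjured tendon. The lowest injured value, in BI-181, was more than 3 times the highest uninjured one, and the gene was 5.55-fold higher (log2 fold change 2.47, SE 0.25, adjusted p = 0.00177). Cd68, a lysosomal glycoprotein used to stain macrophages, stood at 198, 323, 226 and 269 CPM against 46.5, 61.8 and 36.5 CPM (log2 fold change 2.40, SE 0.25, adjusted p = 0.00191). Mrc1, the mannose receptor, reached 92.2, 136, 163 and 128 CPM after injury and 26.3, 38.95 and 24.1 CPM without it (log2 fold change 2.12, SE 0.25, adjusted p = 0.00347). In each of these 3 genes BI-181 was the lowest injured library and C57_uninj_6 the lowest of all, with 508 CPM, 23.98 CPM and 15.5 CPM.

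The immunoglobulin receptors Fcgr2b and Fcgr3 rose as well. Fcgr2b, the inhibitory IgG receptor, was at 77.6, 114, 100.2 and 94.4 CPM against 10.3, 15.3 and 9.23 CPM (log2 fold change 3.05, SE 0.24, adjusted p = 0.000681), and Fcgr3 was at 153, 252, 236 and 229 CPM against 41.4, 54.8 and 47.4 CPM (log2 fold change 2.18, SE 0.21, adjusted p = 0.00151). Adgre1, which encodes F4/80, had log2 fold change 1.84 (SE 0.34), Csf1r, the receptor of the macrophage growth factor CSF1, 1.45 (SE 0.25), and Trem2, a lipid-sensing receptor, 1.87 (SE 0.23), all of them DEG in the 7 libraries. Lpl, lipoprotein lipase, also rose from 34.2, 10.1 and 17.6 CPM to 213, 154, 203 and 119 CPM. A core of 10 members, Cbr2, Cd68, Ctss, Fcgr2b, Fcgr3, Laptm5, Lpl, Lyz2, Mrc1 and Tyrobp, were DEG in all 7 comparisons with 1 library left out and with C57_uninj_6.

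Enzymes of the lysosome and the first component of complement followed the same direction. Of 25 tested cathepsin and lysosome genes 6 were higher, beside 3.6% of all tested genes, and none lower. With C57_uninj_6 3 passed in edgeR and 8 in DESeq2, beside 0.971% higher over all genes in edgeR and 691 of 16570 in DESeq2. The edgeR count of the 7 libraries became 3 without C57_uninj_5. Ctsc, a dipeptidyl peptidase that activates serine proteases of leukocytes, rose 6.61-fold from 45.3, 60.3 and 45.6 CPM to 282, 426, 306 and 319 CPM (log2 fold change 2.72, SE 0.21, adjusted p = 0.000681), and the groups were separated by a wide gap that C57_uninj_6 at 40.1 CPM did not enter. Ctss, which trims the invariant chain of MHC class II, had log2 fold change 2.18 (SE 0.23), and Ctsk, the collagen-degrading cathepsin of osteoclasts, 1.31 (SE 0.30). In the complement list 8 of 17 members were higher, again beside 3.6% of all tested genes, and none was lower. C1qa and Cfp also passed with C57_uninj_6, where DESeq2 called 8 members. Among the 7 libraries, the edgeR count moved to 4 without C57_uninj_3, C57_uninj_4 or C57_uninj_5 and 5 without BI-183. C1qb, a chain of the C1q recognition molecule, stood at 426, 819.6, 739 and 707 CPM against 201, 216 and 198 CPM. Cfp, properdin, which stabilises the alternative pathway convertase, stood at 50.03, 65.7, 70.8 and 55.4 CPM against 8.79, 11.3 and 9.06 CPM (log2 fold change 2.64, SE 0.21, adjusted p = 0.000681).

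Of 33 chemokine ligands and receptors, 25 had enough counts to be tested, 13 were higher and none was lower, beside 3.6% higher over all tested genes. With C57_uninj_6 (0.971% higher over all genes) 4 passed, Ccr2, Ccl6, Ccl9 and Ccl24, against 14 by DESeq2 on the same 8 libraries, and the edgeR count was 7, 6 and 4 without C57_uninj_3, C57_uninj_4 and C57_uninj_5. Ccr2 (chr9:124101950-124113557), the receptor by which monocytes leave the marrow and enter inflamed tissue, was at 70.3, 95.9, 184 and 61.4 CPM in injured and 1.898, 3.597 and 1.88 CPM in uninjured tendon, 41.6-fold higher (log2 fold change 5.38, SE 0.51, adjusted p = 0.00151). Its ligand Ccl2 stood at 81.9, 113, 304 and 72.3 CPM against 6.05, 7.94 and 16.9 CPM (log2 fold change 3.80, SE 0.68, adjusted p = 0.0223) and was highest in BI-184. No count of Ccl2 was found in C57_uninj_6, and its adjusted p was 0.148 with that library.

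Ccl2, Ccl7, Ccl8, Ccl11 and Ccl12 lie side by side within 81.2 kb at chr11:82035571-82116799, and all 5 were higher after injury. Ccl8 reached 14.9, 84.2, 36.2 and 63.1 CPM against 0.0703, 1.9002 and 1.71 CPM, while Ccl11, the eotaxin that attracts eosinophils, was at 65.3, 8.04, 9.79 and 43.8 CPM against 3.37, 1.43 and 0.98 CPM, with BI-181 and BI-185 above the other injured libraries. Ccl6, at 176, 222, 264 and 151 CPM against 7.24, 14.2 and 21.96 CPM, and Ccl9, at 139.5, 198, 264 and 135 CPM against 16.9, 30.3 and 26.2 CPM, are another neighbouring pair on chromosome 11, and their groups lay far apart. Ccl17, a ligand of CCR4, rose from at most 0.984 CPM to 18.9, 31.5, 38.2 and 7.89 CPM (log2 fold change 5.68, SE 0.99, adjusted p = 0.0156).

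The smallest adjusted p of all tested genes belonged to a component of MHC class II. H2-Aa (chr17:34282744-34287823), the alpha chain of the I-A molecule, was at 188, 227, 199.9 and 188 CPM in injured and 23.3, 17.2 and 18.5 CPM in uninjured tendon, which is 10.2-fold (log2 fold change 3.35, SE 0.18, adjusted p = 0.000218). Of 10 tested members of the list 8 were higher, beside 3.6% of all tested genes, and none was lower, with a median log2 fold change of 3.44 (3.30 with H2-Ob at its bound). The count was 7 when any 1 of the 3 uninjured libraries was left out. It was 3 with C57_uninj_6, where DESeq2 on the same 8 libraries called all 10, and in that library 7 of the 8 genes lay above the other uninjured libraries and none reached the injured range. H2-Aa itself stood at 104 CPM there, and its adjusted p became 0.108.

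The beta chains and the genes of peptide loading rose as well. H2-Ab1, the partner of H2-Aa, was at 301, 359, 205 and 288 CPM against 41.1, 26.1 and 23.8 CPM (log2 fold change 3.25, SE 0.28, adjusted p = 0.00085), and H2-Eb1 of the I-E molecule at 143, 163, 79.4 and 121 CPM against 19.8, 13.8 and 11.8 CPM (log2 fold change 3.07, SE 0.30, adjusted p = 0.00151). Cd74, the invariant chain that guides MHC class II to the endosome, reached 763, 784, 457 and 658 CPM against 79.2, 48.1 and 46.5 CPM (log2 fold change 3.52, SE 0.29, adjusted p = 0.000755). H2-DMa and H2-DMb1 form the molecule that loads peptides, and H2-DMb1 rose from 1.62, 2.58 and 1.06 CPM to 46.2, 46.4, 34.3 and 39.8 CPM (log2 fold change 4.56, SE 0.34, adjusted p = 0.000681). It remained DEG with C57_uninj_6, where it was at 3.55 CPM (log2 fold change 4.24, SE 0.40, adjusted p = 0.00604). Cd86, the co-stimulatory ligand of CD28, was at 33.1, 33.6, 45.1 and 34.01 CPM against 9.14, 10.5 and 9.23 CPM (log2 fold change 1.92, SE 0.21, adjusted p = 0.00255), and its level was nearly the same in 3 injured libraries.

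The class II genes of the H2 region are known to be switched on through shared boxes just ahead of their starts, the Y box among them, whose core is an inverted CCAAT. Of the 8 DEG, 6 lie within 197.1 kb at chr17:34119541-34316674. Because these genes moved together, promoters are shown, and those printed are examples that hold the match searched for. RefSeq (GRCm38.p6) gave a window of 250 bases ahead of a start for 5 of the 8 genes, in 6 windows, and TGATTGG, searched on both strands, was found in 4 of these windows, in 7.23% of all 32851 windows, and also in 9 of the 18 windows of the G2/M genes that were higher. The stretches printed hold only the part of the window clear of annotated exons, which is 250 bases for H2-Aa, 146 for H2-Eb1 and 248 for H2-Ob. They run 5′ to 3′ on the strand of the gene and show TGATTGG in capitals.
H2-Aa, chr17:34287824-34288073, minus strand: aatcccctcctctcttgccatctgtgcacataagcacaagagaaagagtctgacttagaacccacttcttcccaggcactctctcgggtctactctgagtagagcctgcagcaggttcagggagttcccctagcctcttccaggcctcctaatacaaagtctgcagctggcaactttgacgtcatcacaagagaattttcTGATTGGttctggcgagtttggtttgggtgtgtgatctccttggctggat
H2-Eb1, chr17:34305721-34305866, plus strand: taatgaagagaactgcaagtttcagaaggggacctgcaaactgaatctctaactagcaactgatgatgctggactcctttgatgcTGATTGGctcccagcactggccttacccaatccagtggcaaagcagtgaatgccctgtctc
H2-Ob, chr17:34238655-34238902, plus strand: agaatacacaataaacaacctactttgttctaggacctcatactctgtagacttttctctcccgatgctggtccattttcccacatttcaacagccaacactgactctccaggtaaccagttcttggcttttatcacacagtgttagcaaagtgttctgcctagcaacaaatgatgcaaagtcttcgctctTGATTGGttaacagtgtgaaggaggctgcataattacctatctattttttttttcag
The match began 50 bases ahead of the start in H2-Aa, 61 in H2-Eb1 and 59 in H2-Ob. H2-Ob, a subunit of the modulator of peptide loading, had few counts, at 0.907, 2.06, 1.54 and 3.27 CPM against 0, 0.136 and 0 CPM, a rise of at least 8.85-fold (adjusted p = 0.0436).

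Genes that respond to interferon rose in part. Among 31 tested members 9 were higher and none lower, beside 3.6% higher over all tested genes. With C57_uninj_6 5 passed in edgeR and 9 in DESeq2. Leaving out 1 of the 7 libraries moved the edgeR count to 5 without C57_uninj_3, C57_uninj_4 or C57_uninj_5. A core of 5, Ifi204, Ifi205, Ifi207, Ifi209 and Ifi27l2a, passed in every comparison with 1 library left out and with C57_uninj_6. The first 4 belong to the PYHIN family of DNA sensors and lie together within 400.9 kb at chr1:173630917-174031810. Ifi205 was at 32.8, 39.2, 25.96 and 41.2 CPM against 5.13, 3.73 and 3.43 CPM (log2 fold change 3.08, SE 0.28, adjusted p = 0.00109), and Ifi204 at 24.04, 40.5, 25.8 and 54.5 CPM against 4.64, 4.68 and 3.59 CPM (log2 fold change 3.07, SE 0.35, adjusted p = 0.00315). Ifi209 had no count in any uninjured library and was at 6.09, 3.41, 4.23 and 1.86 CPM after injury, a rise of at least 17.7-fold (adjusted p = 0.0108). As members of a multigene family they can share reads, so the split between them is uncertain. Ifit1 and Isg15, which are among the strongest targets of type I interferon, did not pass, and Ifit1 was high in 1 library only, BI-185, with 8.23, 8.68, 2.35 and 69.5 CPM against 10.6, 0.611 and 0 CPM (log2 fold change 2.56, SE 1.83, adjusted p = 0.494).

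**Figure D3:**
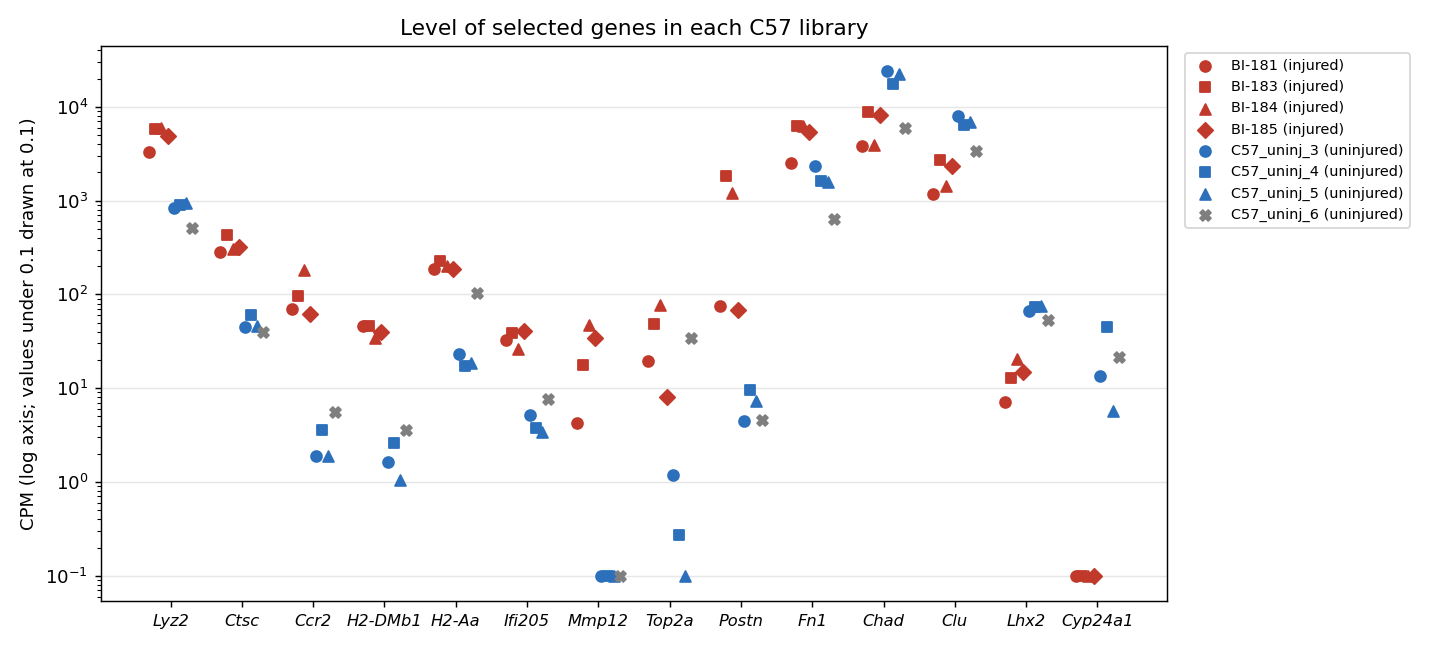
CPM (log axis) of selected genes in each library, with injured libraries in red, the uninjured libraries of the main comparison in blue and C57_uninj_6 in grey. Lyz2, Ctsc, Ccr2, H2-DMb1 and Ifi205 separate injured from all uninjured libraries, Top2a separates them only without C57_uninj_6, and Postn spans 68.2 to 1829.6 CPM within the injured group.

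Other leukocytes left fewer counts. Only 3 of 12 neutrophil genes were tested, and Lcn2, lipocalin, which many cell types secrete, was higher, at 63.97, 79.1, 29.2 and 126 CPM against 10.9, 5.43 and 15.4 CPM (log2 fold change 2.82, SE 0.54, adjusted p = 0.0221). S100a8 and Il1b were at no more than 3.24 CPM in the injured libraries and high in C57_uninj_5 alone, with 0.562, 0 and 88.2 CPM and 0, 0.204 and 34.1 CPM in the uninjured group, and neither passed (log2 fold changes -3.94 and -3.40). Leaving out C57_uninj_5 turned S100a8 to 2.76, which did not pass either, and left no more than 3 counts of Il1b in either remaining uninjured library. Of 25 T and NK cell genes 5 were tested, and Klrk1, the receptor NKG2D, was higher at 1.81, 2.12, 0.47 and 2.31 CPM against no counts, a rise of at least 7.64-fold (adjusted p = 0.0329). Cd79b, a chain of the B cell receptor and the only one of 8 B and plasma cell genes with enough counts, was at 2.46, 0.45, 1.48 and 0.67 CPM against no counts (adjusted p = 0.0482). Both had enough counts to be tested through the injured group alone, so only a rise could be found, and their values are a description. Both lay at few counts, and neither had enough counts to be tested with C57_uninj_6 in edgeR, whereas DESeq2 on those 8 libraries called 3 T and NK cell genes and 1 B cell gene higher. In the mast cell list Gata2 was higher and Hs3st1 lower of 10 tested, and neither passed with C57_uninj_6 in edgeR, where DESeq2 called 5 genes of the list higher. Without C57_uninj_3, C57_uninj_4, C57_uninj_5 or BI-183 no gene of that list was DEG, without BI-181 or BI-185 1 was, and without BI-184 4 were higher. The mast cell protease Cma1 did not pass (log2 fold change 3.89, SE 0.98, adjusted p = 0.073), with 30.98, 122, 5.77 and 48.7 CPM against 3.73, 3.597 and 3.102 CPM, and BI-184 lay close to the uninjured libraries. Of 28 tested cytokines and their receptors 5 were higher and 1 lower, beside 3.6% and 1.41% over all tested genes. With C57_uninj_6 1 was higher in edgeR, and 7 were higher and 3 lower in DESeq2. With 1 of the 7 libraries left out, edgeR called 0 without C57_uninj_4 or C57_uninj_5, 1 without C57_uninj_3 or BI-183 and 10 without BI-181. Il1rl1, the receptor of IL-33, rose from 1.05, 0.543 and 0.163 CPM to 9.98, 40.5, 50.6 and 5.06 CPM (log2 fold change 5.46, SE 1.04, adjusted p = 0.0223), whereas Il33 itself fell from 407, 592 and 414 CPM to 87.5, 118, 248 and 119 CPM (log2 fold change -1.72, SE 0.34, adjusted p = 0.022). Neither passed with C57_uninj_6 (adjusted p = 0.165 and 0.144).

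Genes of mitosis rose in the 7 libraries, and with C57_uninj_6 their median rise was smaller and none of those listed passed in edgeR. Of 54 tested genes of the G2/M phase 21 were higher and none was lower, with a median log2 fold change of 3.19, and of 43 genes of the S phase 5 were higher, beside 3.6% of all tested genes. With C57_uninj_6 none of either list passed in edgeR, and the medians were 1.00 and 0.32. DESeq2 on those 8 libraries called 3 and 0. In C57_uninj_6 all 26 of these genes lay above the other uninjured libraries, and 24 reached the range of the injured ones. Leaving out C57_uninj_3, C57_uninj_4, C57_uninj_5, BI-183 or BI-184 gave 5, 2, 5, 9 and 13 G2/M genes. Of the S phase genes 2, 1, 2 and 2 passed without C57_uninj_3, C57_uninj_4, C57_uninj_5 and BI-183.

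Top2a, the topoisomerase that untangles replicated chromosomes, was at 19.5, 48.04, 76.6 and 8.11 CPM in injured and 1.195, 0.272 and 0.0816 CPM in uninjured tendon (log2 fold change 6.16, SE 1.13, adjusted p = 0.0229). BI-185 was the lowest of the injured libraries and BI-184 the highest, and C57_uninj_6 at 34.6 CPM lay between them. Mki67, the proliferation antigen Ki-67, was at 29.6, 67.5, 75.7 and 20.5 CPM against 4.08, 4.07 and 4.49 CPM (log2 fold change 3.52, SE 0.49, adjusted p = 0.00662) and at 69.5 CPM in C57_uninj_6. Spag5 and Bub1, which act at the spindle and kinetochore, had no counts in the 3 uninjured libraries and were at least 36.5-fold and 25.7-fold higher. The kinetochore gene Ska1 and the spindle gene Troap likewise rose at least 25.1-fold and 24.3-fold, and the mitotic kinase Pbk had log2 fold change 7.56 (SE 1.14). Ect2, a guanine nucleotide exchange factor of cytokinesis, was at 6.61, 12.2, 27.1 and 5.28 CPM against 0.281, 0.0679 and 0.163 CPM (log2 fold change 6.16, SE 0.85, adjusted p = 0.00599) and came nearest to passing with C57_uninj_6, where it was at 1.35 CPM (log2 fold change 4.75, SE 1.00, adjusted p = 0.0599). Cdc25c and Ttk changed sign with C57_uninj_6.

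Promoters of G2/M genes are known for repeated CCAAT boxes bound by the factor NF-Y. Because these genes rose together, promoters are shown, and those printed are examples that hold such repeats. Of the 21 DEG 17 had promoters in RefSeq (18 windows), and at least 2 copies of ATTGG, counted on both strands as CCAAT or ATTGG, were found in 11 of the 18 windows and in 10.1% of all windows. ATTGG is also the end of TGATTGG, so the motifs overlap. The 250 bases ahead of each start are given 5′ to 3′ on the strand of the gene, with CCAAT and ATTGG in capitals.
Ccnb2, chr9:70421555-70421804, minus strand: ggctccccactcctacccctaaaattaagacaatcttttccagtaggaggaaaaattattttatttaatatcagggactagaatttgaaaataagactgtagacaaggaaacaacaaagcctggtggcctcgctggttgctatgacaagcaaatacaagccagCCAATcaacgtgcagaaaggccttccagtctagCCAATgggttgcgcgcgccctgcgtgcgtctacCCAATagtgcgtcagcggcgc
Top2a, chr11:99024190-99024439, minus strand: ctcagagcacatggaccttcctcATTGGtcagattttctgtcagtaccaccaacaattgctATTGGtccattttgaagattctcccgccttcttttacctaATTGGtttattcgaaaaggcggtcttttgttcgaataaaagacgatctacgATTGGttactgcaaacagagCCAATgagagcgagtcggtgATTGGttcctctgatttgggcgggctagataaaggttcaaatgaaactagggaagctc
Ccnb2, which encodes cyclin B2, held 3 copies, at 87, 54 and 21 bases ahead of its start, and Top2a held 6. Ccnb2 was at 19.2, 66.1, 41.9 and 8.33 CPM in injured and 1.27, 2.38 and 2.53 CPM in uninjured tendon (log2 fold change 4.04, SE 0.73, adjusted p = 0.018), and at 27.7 CPM in C57_uninj_6.

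**Figure D4:**
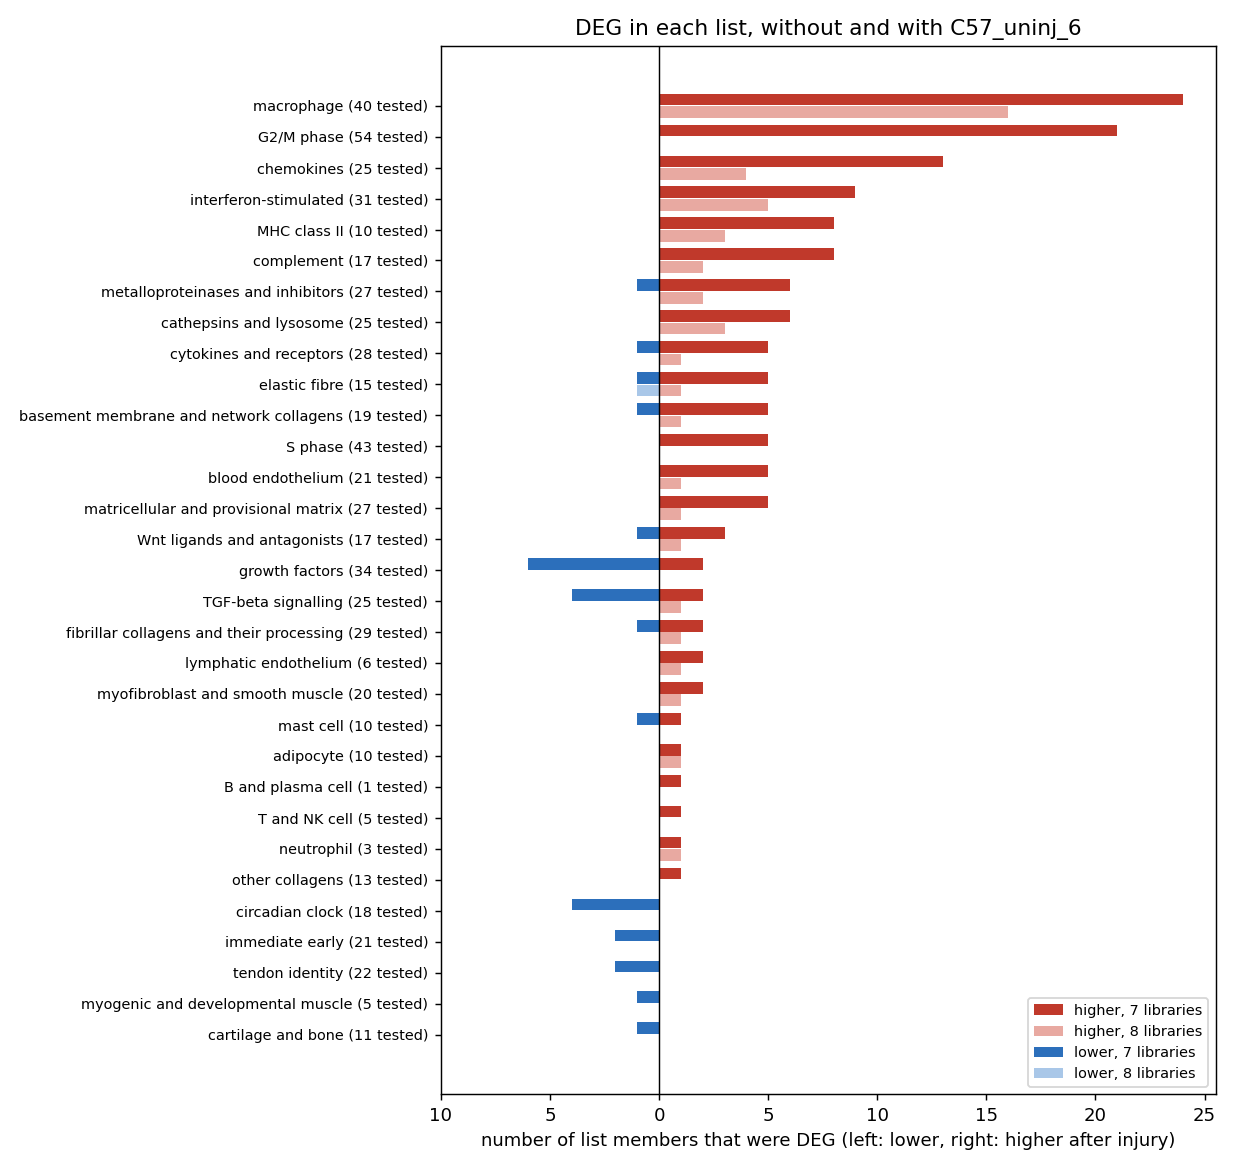
Number of DEG that were higher (right) and lower (left) in each gene list, in dark bars for the 7 libraries and in pale bars with C57_uninj_6. The macrophage list keeps 16 of its 24 with that library, whereas the G2/M list goes from 21 to 0.

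In edgeR on the 7 libraries, genes that define tendon were lower or did not pass, whereas DESeq2 called some of them higher. Of 22 tested genes of tendon identity 2 were lower and none higher, beside 1.41% lower over all genes, and the median log2 fold change was -0.60. Single libraries of the 7 moved the edgeR count to 0 without C57_uninj_3, C57_uninj_4 or C57_uninj_5 and 1 without BI-185. Without BI-184 3 were lower, and without BI-181 1 was higher and 2 lower. With C57_uninj_6 edgeR called none. DESeq2 called 2 higher and 4 lower on the 7 libraries, and 2 higher and 2 lower on the 8. Chad, chondroadherin (chr11:94565047-94569127), fell from 24041, 17554 and 22447 CPM to 3832, 8897, 3948 and 8216 CPM (log2 fold change -1.78, SE 0.34, adjusted p = 0.0195), and Cilp2 from 1474, 1395 and 1643 CPM to 308, 719, 711 and 557 CPM (log2 fold change -1.39, SE 0.28, adjusted p = 0.0225). Both were also low in C57_uninj_6, at 5975 CPM and 529 CPM, and neither passed with it. Scx, the transcription factor scleraxis, was at 54.4, 66.4, 62.7 and 62.4 CPM against 111, 102 and 134 CPM without overlap, but its log2 fold change of -0.91 (SE 0.15, adjusted p = 0.0131) missed the fold criterion. Mkx was at 24.8, 52.6, 79.2 and 57.3 CPM against 117, 116 and 119.5 CPM (log2 fold change -1.14, SE 0.32, adjusted p = 0.0734), lowest in BI-181. Tnmd, tenomodulin, overlapped fully, with 100.4, 124, 91.3 and 162 CPM against 171, 97.5 and 87.5 CPM (log2 fold change 0.01, SE 0.28, adjusted p = 0.991).

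Genes of fibrillar collagen and its processing varied widely between injured tendons. Of 29 tested genes 2 were higher and 1, Pcolce2, was lower, beside 3.6% and 1.41% over all tested genes. The edgeR count of the 7 libraries became 0 without C57_uninj_4 or C57_uninj_5, 1 without C57_uninj_3 and 6 without BI-181. With C57_uninj_6 edgeR called 1 higher and none lower, so that Pcolce2 was lost. DESeq2 called 6 higher and 1 lower on the 7 libraries, and 4 higher and none lower on the 8. Col1a1 was at 4449, 10272, 11190.0 and 6356 CPM against 5178, 6649.9 and 5643 CPM (log2 fold change 0.47, SE 0.32, adjusted p = 0.451), and Col3a1, the collagen of early scar, at 4729, 14936, 15776 and 7514 CPM against 4385, 5667 and 6642 CPM (log2 fold change 0.95, SE 0.41, adjusted p = 0.231). BI-183 and BI-184 lay well above the uninjured tendons and BI-181 did not, and without BI-181 Col3a1 (log2 fold change 1.21, SE 0.28, adjusted p = 0.0351), Col5a1 (log2 fold change 1.25, SE 0.29, adjusted p = 0.0319) and the collagen chaperone Serpinh1 (log2 fold change 1.23, SE 0.22, adjusted p = 0.0131) became DEG. Loxl1, which crosslinks elastin and collagen, was at 79.5, 221, 89.6 and 121 CPM against 25.5, 14.8 and 12.98 CPM (log2 fold change 2.85, SE 0.42, adjusted p = 0.00863), also with C57_uninj_6 (adjusted p = 0.0327), and the prolyl hydroxylase subunit P4ha3 at 38.3, 142, 41.5 and 48.8 CPM against 11.2, 7.13 and 12.001 CPM (log2 fold change 2.74, SE 0.52, adjusted p = 0.0213).

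Among matricellular and provisional matrix genes 5 of 27 were higher and none lower, beside 3.6% higher over all tested genes. None of the 5 passed with C57_uninj_6 in edgeR, where DESeq2 called 8 of the list higher. Among the 7 libraries, the edgeR count moved to 1 without C57_uninj_4 or C57_uninj_5, 2 without C57_uninj_3 or BI-183 and 8 without BI-181. Fn1, fibronectin (chr1:71585520-71653200), the scaffold of the provisional matrix, was at 2544, 6325, 6279 and 5409 CPM against 2329, 1626 and 1564 CPM (log2 fold change 1.48, SE 0.33, adjusted p = 0.0351), with BI-181 close to the uninjured range. Ltbp2 stood at 101, 141, 200.2 and 123 CPM against 25.2, 37.4 and 39.4 CPM (log2 fold change 2.06, SE 0.27, adjusted p = 0.00501), and Wisp2 at 145, 334, 181 and 221 CPM against 76.1, 65.1 and 46.4 CPM (log2 fold change 1.82, SE 0.31, adjusted p = 0.0127). The small leucine-rich proteoglycans Aspn and Ogn had log2 fold changes of 1.14 (SE 0.23) and 1.42 (SE 0.33). Postn, periostin, a matrix protein of healing tissue, varied widely among injured tendons, with 74.7, 1829.6, 1208 and 68.2 CPM against 4.43, 9.501 and 7.35 CPM. All injured libraries exceeded the uninjured ones, but BI-183 and BI-184 were over 10 times the other injured libraries, and the gene did not pass (log2 fold change 6.81, SE 1.70, adjusted p = 0.0851). It did with C57_uninj_6, at 4.61 CPM (log2 fold change 6.94, SE 1.25, adjusted p = 0.0448). The same split between BI-183 and BI-184 on one side and BI-181 and BI-185 on the other was seen in Cthrc1, at 20.2, 398, 153 and 13.8 CPM against 1.27, 4.14 and 1.31 CPM, and in Tnc, tenascin C, at 23.01, 83.2, 87.8 and 10.9 CPM against 5.34, 1.63 and 0 CPM, neither of which passed.

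Elastic fibre genes were higher in 5 of 15 cases and lower in 1, beside 3.6% and 1.41% over all tested genes. With C57_uninj_6 1 was higher and 1 lower in edgeR, and 8 and 1 in DESeq2. Leaving out 1 of the 7 libraries moved the edgeR count to 3 without C57_uninj_3, C57_uninj_4, C57_uninj_5 or BI-183. Mfap5, a microfibril protein, rose from 75.2, 75.4 and 73.4 CPM to 332, 745, 459 and 457 CPM (log2 fold change 2.74, SE 0.28, adjusted p = 0.00173) and passed in every comparison with 1 library left out and with C57_uninj_6. Fbn1, fibrillin, was at 282, 655, 587 and 278 CPM against 138, 166 and 140.3 CPM (log2 fold change 1.60, SE 0.34, adjusted p = 0.0265), and Emilin2 at 73.8, 146, 158 and 129 CPM against 34.6, 28.4 and 25.1 CPM (log2 fold change 2.11, SE 0.27, adjusted p = 0.00496). Fbln1, fibulin 1, went the other way in a similarly separated manner, from 920.0, 798 and 927 CPM to 151, 294, 182 and 295 CPM (log2 fold change -1.93, SE 0.26, adjusted p = 0.00501), and C57_uninj_6 at 964 CPM lay with the uninjured libraries. In the basement membrane list, Nid1, Lamc1, Lamb1, Col4a2 and Col8a1 were higher and Col8a2 was lower, out of 19 tested. DESeq2 on the 8 libraries called 5 of that list higher and edgeR 1. With 1 of the 7 libraries left out, edgeR called 1 without C57_uninj_4 or C57_uninj_5 and 2 without C57_uninj_3. Nid1, nidogen, which links laminin to collagen IV, rose from 23.3, 15.1 and 7.103 CPM to 69.99, 113, 103 and 87.1 CPM (log2 fold change 2.61, SE 0.38, adjusted p = 0.00769) and also passed with C57_uninj_6.

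Of 27 tested metalloproteinases and their inhibitors 6 were higher and 1 was lower, beside 3.6% and 1.41% over all tested genes. Mmp12 and Mmp2 passed with C57_uninj_6, where DESeq2 called 7 higher and 1 lower. Single libraries of the 7 moved the edgeR count to 0 without C57_uninj_4 or C57_uninj_5, 1 without C57_uninj_3 and 2 without BI-183. Mmp12, macrophage elastase (chr9:7344381-7369499), showed the largest fitted rise of all DEG. It had no counts in any of the 4 uninjured libraries and was at 4.28, 17.6, 47.7 and 34.6 CPM after injury, a rise of at least 118-fold (adjusted p = 0.0154). Mmp2, gelatinase A, was at 395, 701, 255 and 770.2 CPM against 163, 159 and 153 CPM (log2 fold change 1.74, SE 0.36, adjusted p = 0.026), and Mmp14, the membrane protease that activates it, at 160.3, 445, 246 and 219 CPM against 94.7, 99.9 and 93.4 CPM (log2 fold change 1.48, SE 0.32, adjusted p = 0.0293). Timp1, an inhibitor of these enzymes, was at 134, 444, 499.8 and 205 CPM against 70.4, 54.2 and 106 CPM (log2 fold change 2.06, SE 0.49, adjusted p = 0.0473). Mmp28 fell from 14.3, 11.8 and 12.7 CPM to 4.34, 3.79, 3.69 and 5.66 CPM (log2 fold change -1.56, SE 0.32, adjusted p = 0.0235).

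Tgfb1, a driver of scar formation, did not pass, with 52.2, 81.6, 53.1 and 67.04 CPM in injured and 58.6, 39.02 and 53.96 CPM in uninjured tendon (log2 fold change 0.33, SE 0.22, adjusted p = 0.444). In its signalling list 2 of 25 genes were higher and 4 lower, beside 3.6% and 1.41% over all tested genes. The edgeR count of the 7 libraries became 0 without C57_uninj_3 or C57_uninj_4, 1 without C57_uninj_5 and 3 without BI-183. Eng, a co-receptor found on endothelium, rose from 18.7, 17.7 and 21.1 CPM to 37.1, 41.4, 36.8 and 42.7 CPM (log2 fold change 1.04, SE 0.17, adjusted p = 0.0121), as did Lrrc32, which anchors latent TGF-beta to cells. Fst, the activin-binding follistatin, fell from 84.9, 94.9 and 95.3 CPM to 31.8, 28.4, 26.6 and 52.9 CPM (log2 fold change -1.39, SE 0.25, adjusted p = 0.0151), and Inhbb, a subunit of activin B, from 43.1, 58.6 and 43.02 CPM to 16.6, 6.69, 18.98 and 13.9 CPM (log2 fold change -1.78, SE 0.33, adjusted p = 0.0176). The inhibitor Smad6 (log2 fold change -1.09, SE 0.21) and the repressor Tgif1 (-1.02, SE 0.23) were lower too. Eng passed with C57_uninj_6, and none of the 4 falls did in edgeR, where DESeq2 called 3 genes of the list lower.

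Of 34 tested growth factor genes 2 were higher and 6 lower, beside 3.6% and 1.41% over all tested genes, and none of them passed with C57_uninj_6 in edgeR, where DESeq2 called 5 higher and 3 lower. Among the 7 libraries, the edgeR count moved to 1 without C57_uninj_3, C57_uninj_4 or C57_uninj_5 and 4 without BI-183. Among the falls were 3 binding proteins of insulin-like growth factors. Igfbp6 went from 2194, 2236 and 2907 CPM to 665, 911, 995 and 887 CPM (log2 fold change -1.5002, SE 0.20, adjusted p = 0.00514), Igfbp5 from 2437, 2526 and 2651 CPM to 796, 1079, 1422 and 1353 CPM (log2 fold change -1.13, SE 0.22, adjusted p = 0.0218), and Igfbp4 had log2 fold change -1.07 (SE 0.23). Fgf9 fell from 121, 95.1 and 111 CPM to 9.66, 15.8, 43.3 and 19.5 CPM (log2 fold change -2.30, SE 0.44, adjusted p = 0.0211), and Bmp2 and Bmp4 by 1.06 and 1.29 on the log2 scale. Vegfa, the main inducer of vessel growth, was higher, at 51.005, 22.6, 15.7 and 17.3 CPM against 6.54, 4.41 and 9.31 CPM (log2 fold change 1.98, SE 0.48, adjusted p = 0.0449), but reached 56.2 CPM in C57_uninj_6. Without BI-181 the list held 5 higher and 3 lower genes, Igf1 (log2 fold change 1.07, SE 0.19, adjusted p = 0.0119) among the former. In the Wnt list, the secreted antagonists Sfrp2 and Sfrp4 and the ligand Wnt2 were higher and Dkk3 was lower, of 17 tested. With C57_uninj_6 1 of them was DEG in edgeR, and 3 were higher and 1 lower in DESeq2. Leaving out 1 of the 7 libraries moved the edgeR count to 1 without C57_uninj_3 or C57_uninj_4 and 2 without C57_uninj_5. Sfrp4 was at 74.4, 153, 127 and 140.1 CPM against 17.3, 15.5 and 13.6 CPM (log2 fold change 3.00, SE 0.27, adjusted p = 0.00109), while Sfrp2 rose from under 1 CPM to 15.6, 34.4, 9.996 and 16.15 CPM (log2 fold change 5.24, SE 0.88, adjusted p = 0.0129).

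Genes of blood endothelium rose in 5 of 21 tested cases and none fell, beside 3.6% higher over all tested genes. Eng alone passed with C57_uninj_6 in edgeR, where DESeq2 called 5. With 1 of the 7 libraries left out, edgeR called 0 without C57_uninj_4, 1 without C57_uninj_3 or C57_uninj_5, 2 without BI-183 and 8 without BI-184. Emcn, endomucin, was at 21.6, 32.1, 15.4 and 20.8 CPM against 8.86, 5.43 and 6.37 CPM (log2 fold change 1.71, SE 0.33, adjusted p = 0.0209), and Angpt2, which loosens vessel walls during sprouting, at 19.8, 13.9, 6.84 and 15.6 CPM against 3.09, 2.24 and 0.572 CPM (log2 fold change 2.82, SE 0.61, adjusted p = 0.0302). Tie1 and Mmrn2 were the other endothelial DEG beside Eng. Pecam1 did not pass (log2 fold change 1.49, SE 0.57, adjusted p = 0.184), and C57_uninj_3 at 41.5 CPM overlapped the injured libraries. Of 6 tested lymphatic genes Pdpn and Mmrn1 were higher, Mmrn1 also with C57_uninj_6 (3 genes by DESeq2), and the count was 0 without C57_uninj_3, C57_uninj_4 or C57_uninj_5 and 1 without BI-183 or BI-184. Rgs5, a marker of pericytes, was at 218, 159, 139 and 160.3 CPM against 80.6, 57.5 and 38.5 CPM (log2 fold change 1.52, SE 0.27, adjusted p = 0.0151), also with C57_uninj_6. Acta2, the smooth muscle actin used to mark myofibroblasts, varied within both groups, at 963, 251, 94.5 and 719 CPM against 455, 151 and 93.1 CPM (log2 fold change 1.12, SE 0.92, adjusted p = 0.554). Myh11, a smooth muscle myosin, followed the same order of libraries within each group, with 165, 20.3, 14.96 and 84.01 CPM against 55.1, 10.04 and 7.43 CPM. Of 20 tested myofibroblast and smooth muscle genes 2 were higher and none lower, beside 3.6% higher over all tested genes. With C57_uninj_6 1 was higher in edgeR, and 1 to 3 were higher with 1 of the 7 libraries left out. Beside Rgs5 the DEG of that list was Cnn2, calponin 2, which was highest of all in C57_uninj_6 (131 CPM).

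Of the 10 most highly counted DEG, 8 were lower and 2, Lyz2 and Fn1, were higher. Gsn, gelsolin, which severs actin filaments, went from 41624, 42234 and 38185 CPM to 13999.9, 12335, 8847 and 25745 CPM (log2 fold change -1.42, SE 0.34, adjusted p = 0.0417). Angptl7, a secreted angiopoietin-like protein, fell from 22138, 27876 and 29891 CPM to 5534, 7119, 12341 and 9516 CPM (log2 fold change -1.63, SE 0.29, adjusted p = 0.0153), and Clu, the extracellular chaperone clusterin, from 8057, 6423 and 6919 CPM to 1173, 2716, 1442 and 2342 CPM (log2 fold change -1.89, SE 0.30, adjusted p = 0.0105). Prelp, Cst3, Gpx3 and Anxa8 were lower beside Chad, with log2 fold changes of -1.23, -1.02, -1.56 and -1.18. Angptl7, Prelp, Cst3 and Gpx3 were within or below the injured range in C57_uninj_6 too, and none of the 8 lower genes passed with it.

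Lower DEG included 5 transcription factors, set together after their values were seen. Lhx2, a LIM homeobox factor (chr2:38339281-38369733), fell 5.22-fold from 67.2, 74.3 and 75.5 CPM to 7.13, 12.9, 20.7 and 14.8 CPM (log2 fold change -2.38, SE 0.31, adjusted p = 0.00496), and C57_uninj_6 at 53.9 CPM lay near the uninjured libraries (log2 fold change -2.29, SE 0.32, adjusted p = 0.0164). Hand2 was at 12.8, 18.5, 19.5 and 23.5 CPM against 63.97, 75.5 and 68.8 CPM (log2 fold change -1.90, SE 0.22, adjusted p = 0.00304), and Msx1 at 69.6, 104, 99.5 and 119 CPM against 330.4, 274 and 357 CPM (log2 fold change -1.71, SE 0.20, adjusted p = 0.00331). Tfap2b and Tbx5 had log2 fold changes of -3.50 and -2.65, at levels of at most 15.3 CPM in the 7 libraries, and Tfap2b reached 93.9 CPM in C57_uninj_6. Except for Lhx2, none of these 5 passed with C57_uninj_6.

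Cyp24a1, the enzyme that inactivates vitamin D (chr2:170482708-170497145), showed the largest fitted fall of all DEG. It had no counts in the 4 injured libraries and stood at 13.4, 44.99 and 5.71 CPM in uninjured tendon, with 21.4 CPM in C57_uninj_6, and was at least 105-fold lower (adjusted p = 0.0116 and 0.0223 with that library). S100g, a calcium-binding protein best known from the intestine, fell from 62.8, 67.9 and 115 CPM to 5.77, 5.47, 18.05 and 14.8 CPM (log2 fold change -2.89, SE 0.46, adjusted p = 0.011). Aldh3a1, an aldehyde dehydrogenase, went from 328, 402 and 513 CPM to 30.5, 72.4, 53.5 and 84.01 CPM (log2 fold change -2.79, SE 0.33, adjusted p = 0.00331), and Oxtr, the oxytocin receptor, from 28.8, 20.4 and 35.6 CPM to 2.66, 9.905, 3.89 and 2.53 CPM (log2 fold change -2.57, SE 0.50, adjusted p = 0.0208). None of S100g, Aldh3a1 and Oxtr passed with C57_uninj_6, where they stood at 15.2 CPM, 76.2 CPM and 0.213 CPM, within or below the injured range. Wnk4 and Mettl7a3 also passed with C57_uninj_6, whereas Adgrf4, at 10.6, 11.7 and 15.2 CPM in uninjured and at most 1.35 CPM in injured tendon, was at 208 CPM there and did not.

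Among 18 clock genes 4 were lower and none was higher, beside 1.41% lower over all tested genes. Single libraries of the 7 moved the edgeR count to 1 without C57_uninj_5 and 2 without C57_uninj_3, C57_uninj_4, BI-183 or BI-185. Cry2, a repressor of the clock, was at 115, 93.8, 102 and 125 CPM against 221, 278 and 281 CPM (log2 fold change -1.26, SE 0.16, adjusted p = 0.00474), and Rora, which activates Arntl, at 148, 163, 154 and 200.1 CPM against 330.1, 336 and 385 CPM (log2 fold change -1.07, SE 0.16, adjusted p = 0.00746). Cry1 and Per2 had log2 fold changes of -1.29 and -1.03. With C57_uninj_6 the list gave none in edgeR and 2 lower in DESeq2, and there Cry2 was at 40.4 CPM and Rora at 1334 CPM. The hour at which tendons were taken is not given in the sources used here. Of 21 immediate early genes Fosb and Jund were lower, and with C57_uninj_6 none passed in edgeR and 1 in DESeq2. The edgeR count of the 7 libraries became 0 without C57_uninj_5 or BI-181 and 1 without C57_uninj_3, BI-183 or BI-184. Fosb was at 0.843, 0.965, 4.43 and 1.64 CPM against 13.6, 5.16 and 37.96 CPM (log2 fold change -3.26, SE 0.78, adjusted p = 0.0436) and Fos, which did not pass, at 87.1, 32.5, 301 and 128 CPM against 258, 140.1 and 1129 CPM, both highest in C57_uninj_5.

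Several lists gave 1 DEG or none, beside 3.6% higher and 1.41% lower over all tested genes, and from lists of these sizes nothing is read. None of 12 Schwann cell, 17 epidermal, 5 red blood cell, 19 heat shock and 22 glycolysis genes passed in the 7 libraries, and 1 red blood cell gene did without BI-183. DESeq2 on the 8 libraries called 3 red blood cell genes and 1 glycolysis gene higher, and 1 epidermal and 1 heat shock gene lower. In the adipocyte list Lpl alone did, of 10 tested, in the list of other collagens Col24a1, which was higher, of 13, in the cartilage and bone list Chad of 11, and in the myogenic list Ncam1, which was lower, of 5. Of these, Lpl passed whichever library was left out, whereas the other 3 lists held no DEG without C57_uninj_3, C57_uninj_4 or C57_uninj_5, and Col24a1 passed only when BI-185 was left out. The same held for Lcn2 of the neutrophil list, which was also lost without BI-183. Cd79b was lost whichever library was left out, and Klrk1 passed only when BI-184 was left out.

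Muscle genes were among those that stood high in BI-181 alone. A gene was taken as carried by BI-181 when it had at least 5 CPM there and at least 4 times the level of the next injured library, which was so for 331 of 14983 genes (2.21%). Since that rule selects on BI-181 itself, a raised injured mean, a wide spread with few DEG and a lower fold change once BI-181 is left out follow from it, and the values are a description. The 331 genes took 20.1% of the normalized counts of BI-181, against 0.606% to 1.19% in the other injured and 0.66% to 0.734% in the uninjured libraries. Their median log2 fold change was 2.54 with BI-181 and 0.36 without it (282 tested), and 96 of them turned from positive to negative. Klhl30 alone was both carried by BI-181 and DEG. BI-183 was the next library for 200 of the 331.

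Acta1, skeletal alpha-actin, was at 26364, 808, 0 and 0.744 CPM against 0.914, 0.136 and 0 CPM (log2 fold change 14.18, SE 5.62, adjusted p = 0.235). It was high in BI-181 and, at a lower level, in BI-183. Atp2a1, the calcium pump of fast fibres, followed at 12351, 248, 0.201 and 0.67 CPM, the myosin light chain Myl1 at 11454, 369, 0.671 and 1.34 CPM, and the troponin Tnnt3 at 9488, 250.4, 1.27 and 3.27 CPM. All 20 tested genes of the skeletal muscle list were carried by BI-181 and none was DEG, with a median log2 fold change of 9.21 (4.94 without BI-181, 17 tested). With the libraries of both strains in one model, 1 gene of the list was DEG.

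Some genes carried by BI-181 stand in lists that are read for other processes. In the glycolysis list these were Aldoa, Gapdh, Hk2, Ldhb and Pfkm, and the muscle phosphofructokinase Pfkm was at 1714, 51.7, 14.4 and 25.97 CPM against 12.3, 20.6 and 20.2 CPM (log2 fold change 4.67 with BI-181 and 0.80 without). In the smooth muscle list they were Tpm1, Tpm2 and Synpo2, of which Synpo2 turned from 2.46 to -0.17. Car3 of the adipocyte list was at 6969.7, 349.8, 2.48 and 123 CPM against 47.6, 2.31 and 2.45 CPM. Fhl1 went from 0.86 with BI-181 to -0.52 without it, and its other injured libraries all lay below the uninjured ones (9548, 1262, 1289.6 and 1256 CPM against 1770.0, 1594 and 2144 CPM). Klhl30, a kelch-like gene (chr1:91351016-91362416), was at 41.2, 6.17, 4.63 and 3.57 CPM against 0.844, 0.407 and 0.245 CPM (log2 fold change 4.76, SE 1.09, adjusted p = 0.0384) and stayed DEG without BI-181 (log2 fold change 3.25, SE 0.70, adjusted p = 0.0245). No gene of the macrophage, MHC class II, chemokine, G2/M or matrix metalloproteinase lists was carried by BI-181.

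**Figure D5:**
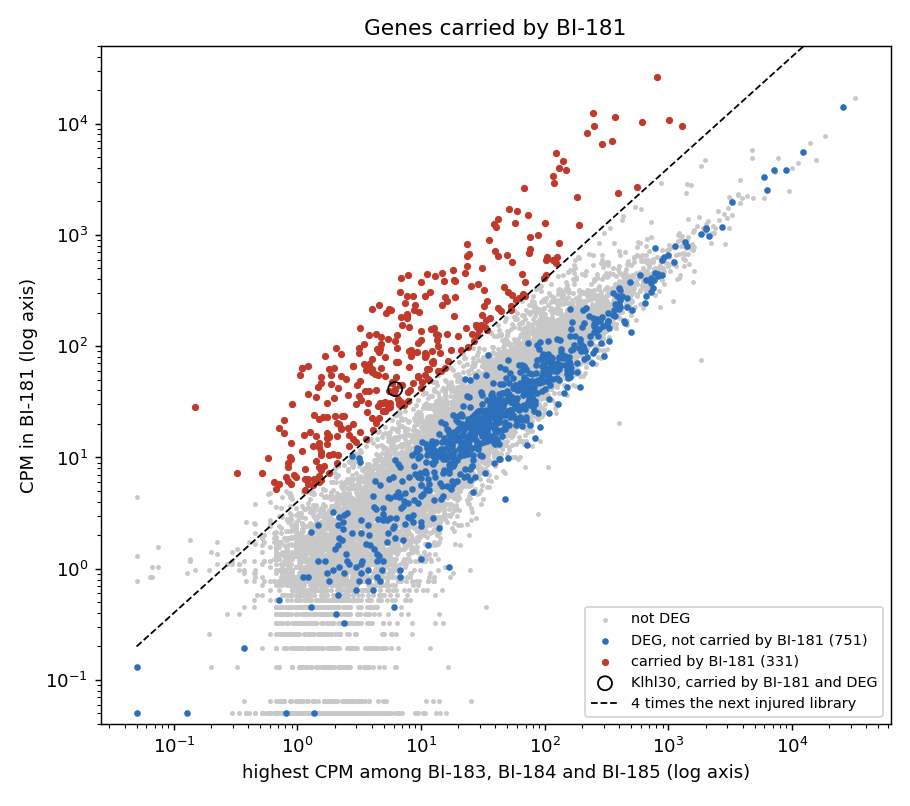
CPM in BI-181 against the highest CPM among the other 3 injured libraries, one point per tested gene on log axes, with the dashed line at 4 times and values under 0.05 CPM drawn at 0.05. The 331 genes carried by BI-181 (red) lie above the line, and of the 752 DEG only Klhl30 (circled) is among them.

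Leaving BI-181 out gave 658 (4.53%) higher and 209 (1.44%) lower genes, of which 668 were shared with the 7 libraries. The 84 genes lost included 23 that no longer had enough counts to be tested, and 199 were gained. The gain fell partly on matrix, where Postn (log2 fold change 7.20, SE 1.42, adjusted p = 0.0446) became DEG, and on Itgam, an integrin of myeloid cells (log2 fold change 1.69, SE 0.39, adjusted p = 0.032). Of the lower genes of high abundance, Cst3 and Anxa8 missed the fold criterion without it.

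Adding C57_uninj_6 brought 4 new DEG. Postn, Ddah2 and Arap1 were higher and Sfswap was lower, the last 3 by log2 fold changes close to the criterion of 1 in both comparisons. Among the genes that were lost, those with the smallest adjusted p in the 7 libraries were H2-Aa, H2-DMa, Pld4, Ucp2, Cd74, Mgl2, Cd200r1, Stmn1, H2-Eb1 and Cnn2 for rises and Tmem255b, BC100451, Syne1, Hand2, Aldh3a1, Msx1, Pxdc1, Galnt15, Cry2 and Nedd4l for falls. Pld4, an endolysosomal nuclease of myeloid cells, was at 61.05, 110.0, 67.6 and 73.7 CPM against 6.61, 6.92 and 5.39 CPM and 36.1 CPM in C57_uninj_6, between the groups. Mgl2, a lectin of macrophages and dendritic cells, was at 37.7, 40.6, 38.8 and 45.3 CPM against 4.01, 6.38 and 3.92 CPM and had no count in C57_uninj_6, further from the injured group, yet its adjusted p rose from 0.000755 to 0.126. Stmn1, a microtubule destabiliser of dividing cells, was at 32.7, 58.7, 50.9 and 23.4 CPM against 2.88, 2.99 and 2.53 CPM and exceeded all of them in C57_uninj_6, at 77.7 CPM. Tmem255b, at 17.6, 20.5, 15.1 and 22.2 CPM against 80.002, 73.4 and 87.4 CPM, was at 20.6 CPM there, within the injured range. Of 570 DEG that were tested but did not pass with C57_uninj_6, 550 kept their sign.

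Several of the largest rises lay outside the lists. H19, an imprinted long noncoding RNA of growing tissues (chr7:142575529-142578143), was at 10.2, 13.9, 0.939 and 0.67 CPM in injured tendon, without a count in the 3 uninjured libraries, a rise of at least 29.3-fold (adjusted p = 0.0449). Cd200r1, an inhibitory receptor of myeloid cells, rose from 0.211, 0.339 and 0.245 CPM to 21.6, 18.01, 19.2 and 7.89 CPM (log2 fold change 5.93, SE 0.54, adjusted p = 0.00109). Aoah, which removes fatty acids from endotoxin, was at 1.23, 6.303, 2.75 and 9.97 CPM and at least 23.04-fold higher. Cyp2e1, an ethanol-oxidising cytochrome P450, was at 11.99, 2.44, 0.738 and 9.67 CPM and at least 28.3-fold higher, with BI-181 and BI-185 above the other injured libraries. Arhgef39 rose at least 27.8-fold. Xpnpep2 was at 5.12, 3.34, 1.54 and 11.5 CPM and at least 24.5-fold higher against the 3 uninjured libraries, but C57_uninj_6 at 19.1 CPM lay above every injured library (log2 fold change 0.17, SE 1.73, adjusted p = 0.977). H19 was at 5.46 CPM in C57_uninj_6, within the injured range. With C57_uninj_6, Aoah and Cyp2e1 remained DEG.

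Among the genes described up to this point, Aldh3a1, BC100451, C1qa, C1qb, Cbr2, Ccl24, Ccl6, Ccl9, Ccr2, Cd200r1, Cd68, Cd74, Cd86, Cfp, Clu, Cnn2, Cry2, Ctsc, Ctss, Ect2, Emilin2, Fbln1, Fcgr2b, Fcgr3, Galnt15, H2-Aa, H2-Ab1, H2-DMa, H2-DMb1, H2-Eb1, Hand2, Ifi204, Ifi205, Ifi207, Ifi209, Ifi27l2a, Igfbp6, Laptm5, Lhx2, Lpl, Ltbp2, Lyz2, Mfap5, Mgl2, Mrc1, Msx1, Nedd4l, Pld4, Pxdc1, Sfrp4, Spag5, Stmn1, Syne1, Tmem255b, Trem2, Troap, Tyrobp and Ucp2 were DEG in all 7 comparisons with 1 library left out. Those that also passed with C57_uninj_6 were C1qa, Cbr2, Ccl24, Ccl6, Ccl9, Ccr2, Cd68, Cd86, Cfp, Ctsc, Ctss, Fbln1, Fcgr2b, Fcgr3, H2-Ab1, H2-DMb1, Ifi204, Ifi205, Ifi207, Ifi209, Ifi27l2a, Laptm5, Lhx2, Lpl, Lyz2, Mfap5, Mrc1, Sfrp4 and Tyrobp. The 10 lower genes that passed under all of these were Dstn, Fbln1, Boc, Mettl7a1, Fzd8, Sun2, Ppfibp2, Mettl24, Bbox1 and Lhx2, of which those other than Lhx2 and Fbln1 were named after their values were seen.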

How the data were processed

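RNA-seq of single flexor tendons was analysed from gene counts. The authors deposited 1 table of raw counts per gene, made, per the submitters' processing notes, with Trimmomatic 0.36, STAR 2.5.2b in 2-pass mode on GRCm38.p5 and featureCounts of Subread 1.5.0p3. Which annotation was counted, and with which strand setting, is not given in the sources used here, so overlapping and antisense genes cannot be told apart. Reads were single-end, 100 nt, without molecular identifiers, so floors cover counting error only. The labels name a TruSeq kit with 100 ng of RNA and the methods a SMARTer and Nextera XT protocol with 1 ng, and which applies is not known. Every column used was matched to a sample by its title.

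Genes were filtered with filterByExpr, scaled by TMM and tested with the quasi-likelihood test of edgeR 4.0.16 (robust, R 4.3.3) with Benjamini-Hochberg adjustment, injured against uninjured, and the scripts were tested on simulated data. A DEG had adjusted p below 0.05 and absolute log2 fold change above 1. Standard errors were derived from the F statistic. Alternatives were C57_uninj_6 added, each library left out, DESeq2 1.42.0, other normalizations and filters, removal of muscle and epidermal genes, and a joint model of 15 libraries of both strains. Genes named were the 15 largest rises and falls with a mean of at least 5 CPM in the higher group, the 10 most highly counted DEG, the 10 highest genes carried by BI-181 and any DEG among them, members of the gene lists, and the first 10 DEG in each direction that 1 of the 2 comparisons alone gave, and a few of these genes are not reported here. The members and lists were chosen with earlier results of these data known. Levels within the text are CPM and are not compared between genes. Gene positions are from GENCODE (GRCm38) and promoters from RefSeq (GRCm38.p6).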

Additional observations from a re-analysis of the deposited data

Results flagged for a closer look

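Within groups of 4 libraries, the uninjured group here including C57_uninj_6, 323 sets of values were examined for 1 library far from the rest by Dixon's 95% criterion, and 41 met it: 19 of 74 list shares and 22 of 249 gene levels. Chance marks about 1 in 20 sets chosen without regard to their values, and these were not: 11 of the genes were named because BI-181 stood far above the other injured libraries, and the epidermal share was the reason C57_uninj_6 was set aside. The tally is therefore a description.

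C57_uninj_6 stood apart in 10 list shares, given as percent of its counts. It was high for epidermal markers (11.8), G2/M phase (0.2177), glycolysis (0.6382), Wnt genes (0.1594), MHC class II (0.05229) and T and NK cell genes (0.0117). It was low for matricellular genes (0.6226), growth factors (0.4355), cathepsins and lysosome (0.5583) and TGF-beta signalling (0.08118). C57_uninj_5 was high for neutrophil genes (0.01555%), C57_uninj_3 for adipocyte genes (0.02979%), and C57_uninj_4 was low for red blood cell genes (0.003126%).

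BI-181 was high for skeletal muscle markers (11.11%), glycolysis (2.223%), myofibroblast and smooth muscle genes (1.878%), adipocyte genes (0.7181%) and myogenic genes (0.03203%), and low for chemokines (0.1396%). Single genes high in BI-181 were Acta1 (26364 CPM), Atp2a1 (12351 CPM), Myl1 (11454 CPM), Aldoa (10744 CPM), Tpm1 (10422 CPM), Fhl1 (9548 CPM), Tnnt3 (9488 CPM), Ttn (8258 CPM), Car3 (6970 CPM), Tpm2 (6598 CPM), Pfkm (1714 CPM), Synpo2 (344.3 CPM) and Klhl30 (41.15 CPM).

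In the other injured libraries, BI-183 was high for P4ha3 (142.1 CPM), Lamb1 (72.1 CPM), Mmp3 (52.29 CPM) and Vegfd (16.59 CPM), and BI-184 for Itgam (146 CPM), Cd86 (45.08 CPM) and Tfap2b (2.147 CPM). BI-185 was high for Ifit1 (69.5 CPM) and low for Dlgap5 (1.488 CPM, against 14.2 to 16.3 CPM in the other injured libraries).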

How the results depend on the processing

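Without an alternative, 752 DEG were found, 540 higher and 212 lower. Adding C57_uninj_6 gave 163 (140 higher, 23 lower), and removing muscle and epidermal genes from those 8 libraries 180 (159 and 21). Leaving out 1 of the 7 libraries gave 207 to 867 DEG, 159 to 658 higher and 48 to 209 lower. DESeq2 gave 1477 (1125 and 352) on 7 libraries and, in place of the 163, 911 on 8. The other normalizations and filters, the removal of muscle and epidermal genes from 7 libraries and the joint model of 15 libraries gave 568 to 764. Of 715 tested list members 166 were DEG, against 44 with C57_uninj_6, 52 with marker genes also removed, 267 with DESeq2 and 54 to 186 with 1 library left out. Genes carried by BI-181 numbered 801 at 2 times and 195 at 8 times the next library, in place of 331 at 4 times.

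Over 249 genes, 4335 single-gene values were computed, of which 3237 kept direction and side of the threshold, 1024 lost and 59 gained a call, and 15 turned direction. Cdc25c turned to -0.26 with C57_uninj_6, -0.24 with DESeq2 on 8 libraries and -0.20 with marker genes removed, and Ttk to -0.24 and, with marker genes removed, -0.18. With 1 library left out, log2 fold changes ran from -0.52 to 1.14 for Fhl1, -0.17 to 2.86 for Synpo2, -0.17 to 0.39 for Tnmd, -4.50 to 2.76 for S100a8, -3.96 to 3.31 for Il1b and -4.56 to 5.55 for Krt14, the upper values of the last pair fitted against at most 3 counts per library and so no measure of size. Tnmd was at -0.019 with upper-quartile factors. The cause of these turns was not tested. The median log2 fold change of all genes lay between -0.02 and 0.09 under every scaling. With an arm of at least 2 libraries in each comparison, no lone library was used. No paired analysis was possible because the injured libraries carry no replicate number. Depth limits genes near 3 counts per library, for which the report gives lower bounds of the fold.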

Other observations

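Genes outside the lists also passed in all 7 comparisons with 1 library left out and with C57_uninj_6, and those named here were picked after their values were seen. Cd84, an adhesion receptor of the SLAM family, stood at 34.3, 40.7, 50.05 and 46.1 CPM in injured and 3.02, 4.21 and 2.78 CPM in uninjured tendon (log2 fold change 3.68, SE 0.26, adjusted p = 0.000681), with 5.18 CPM in C57_uninj_6. Itgb2, the beta chain of leukocyte integrins, stood at 149.6, 119, 253 and 164 CPM against 31.6, 52.7 and 35.8 CPM (log2 fold change 2.10, SE 0.30, adjusted p = 0.00658). Ptafr, the receptor of platelet-activating factor, was below 1 CPM in every uninjured library and at 10.4, 14.02, 12.1 and 13.2 CPM after injury (log2 fold change 4.90, SE 0.45, adjusted p = 0.0012). Irf5, an interferon regulatory factor of myeloid cells, moved less, from 26.995, 23.8 and 24.9 CPM to 62.99, 63.5, 68.2 and 57.5 CPM (log2 fold change 1.32, SE 0.16, adjusted p = 0.00338). All 4 genes separated the 4 injured from the 4 uninjured libraries.

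Of the same set, Pi16 and Scara5 are known from fibroblasts of the tissue that surrounds organs and vessels. Pi16, a secreted peptidase inhibitor, rose from 12.3, 5.43 and 3.84 CPM to 222, 373, 114 and 401 CPM (log2 fold change 5.27, SE 0.64, adjusted p = 0.00564), and C57_uninj_6 at 6.74 CPM lay with the other uninjured libraries. Scara5, a scavenger receptor that takes up ferritin, was at 107, 135, 120.5 and 234 CPM against 25.2, 31.1 and 20.9 CPM (log2 fold change 2.54, SE 0.31, adjusted p = 0.00357), highest in BI-185. Vcam1, an adhesion molecule of activated endothelium and fibroblasts, was at 14.3, 40.8, 18.1 and 25.2 CPM against 3.59, 1.63 and 2.04 CPM (log2 fold change 3.34, SE 0.48, adjusted p = 0.00702). Falls of the same kind were seen in Bbox1, the last enzyme of carnitine synthesis, from 94.3, 78.7 and 77.3 CPM to 17.6, 14.3, 13.95 and 19.4 CPM (log2 fold change -2.35, SE 0.18, adjusted p = 0.000681), and in Fzd8, a receptor of Wnt proteins, from 190.0, 178 and 179.9 CPM to 26.5, 48.7, 37.03 and 52.3 CPM (log2 fold change -2.15, SE 0.23, adjusted p = 0.00225). Boc, a co-receptor of hedgehog proteins, went from 289.6, 279 and 304 CPM to 57.9, 81.2, 72.5 and 108 CPM (log2 fold change -1.87, SE 0.21, adjusted p = 0.00255).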
